A study of Mus musculus with 18 samples.

Results

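Whole brains of Mt-KO pups that had received saline were compared with whole brains of wild-type pups that had received saline. Each side was 1 pool of RNA on 1 Affymetrix mouse expression array, so the comparison used 2 of the 6 arrays of the study. The Mt-KO pups were homozygous (-/-) for a metallothionein knockout that had been backcrossed to C57BL/6J for at least 7 generations. The wild-type pups (WT, +/+) came from the same final brother-sister cross and are labelled C57BL/6J, as are all pups of the study. Heterozygous pups (HET, +/-) after saline and pups of the 3 genotypes after lead acetate (50 mg/kg) made up the other 4 pools. Pups received lead or saline on postnatal days 7 and 8, with 2 injections a day separated by 4 h, and were killed 6 h after the final one. The WT saline pups were thus handled and injected like the Mt-KO saline pups, and neither pool was untreated. RNA of 5 pups, described as male and female, was pooled for each array. The labels do not say which metallothionein genes the knockout alters, or how.

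With 1 pool a side, no spread between pups was measured, and no gene was tested. Values are descriptions of these pools. Levels are deposited RMA values on a log2 scale. Differences are Mt-KO minus WT, relative to the median gene of the pair, whose own difference was -0.15. Each gene was represented by its brightest probe set with 1 gene symbol, and the brightest 60% of autosomal genes were compared, 10443 of 17405. A gene is called past 1.5-fold where its difference was beyond that ratio in either direction. The GC-RMA and PLIER summaries are other computations on the same arrays, so they show what the algorithm contributes and nothing about biological spread.

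Metallothioneins are small cysteine-rich proteins that bind zinc and copper, and also toxic metals such as cadmium. Mt1 and Mt2 are made in many tissues and in brain mainly in astrocytes, whereas Mt3 is made mainly in neurons and Mt4 in stratified epithelia. The zinc-sensing factor MTF-1 binds metal response elements in the Mt1 and Mt2 promoters, and glucocorticoids also raise both genes.

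The RefSeq promoter windows of Mt1, Mt2 and Mt3 are shown because the genes lie side by side on chromosome 8 and all 3 were lower in the Mt-KO pool. They run from 250 bases before to 50 bases after the annotated start (build GRCm38.p6, + strand): Mt1 at chr8:94178839-94179138, Mt2 at chr8:94172368-94172667 and Mt3 at chr8:94152357-94152656. The gene table starts Mt1 at 94178883, inside this window, so the Mt1 window is set by a later start than that one. Capitals mark each match to TGCACNC or TGCGCNC, the core of the metal response element, on either strand.
Mt1: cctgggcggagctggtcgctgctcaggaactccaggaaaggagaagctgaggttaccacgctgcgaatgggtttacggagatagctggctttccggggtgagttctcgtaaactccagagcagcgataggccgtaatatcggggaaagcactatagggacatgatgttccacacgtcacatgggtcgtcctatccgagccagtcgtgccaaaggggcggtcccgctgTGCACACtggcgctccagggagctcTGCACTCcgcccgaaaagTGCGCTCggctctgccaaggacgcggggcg
Mt2: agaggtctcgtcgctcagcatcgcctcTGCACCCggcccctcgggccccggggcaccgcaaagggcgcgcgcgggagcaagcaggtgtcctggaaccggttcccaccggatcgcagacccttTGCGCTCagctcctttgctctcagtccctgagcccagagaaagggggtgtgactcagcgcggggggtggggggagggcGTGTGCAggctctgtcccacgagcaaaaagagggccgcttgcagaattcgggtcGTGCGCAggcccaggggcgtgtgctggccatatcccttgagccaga
Mt3: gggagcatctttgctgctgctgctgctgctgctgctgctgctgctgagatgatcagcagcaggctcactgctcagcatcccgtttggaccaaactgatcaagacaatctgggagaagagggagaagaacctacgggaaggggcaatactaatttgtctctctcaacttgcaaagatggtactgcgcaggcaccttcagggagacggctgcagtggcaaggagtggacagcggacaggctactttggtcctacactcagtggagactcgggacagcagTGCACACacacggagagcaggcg
The Mt1 window holds 3 cores, the Mt2 window 4 and the Mt3 window 1. Of 27025 promoter windows of this length, 25.6% hold at least 1 core, 2.00% at least 3 and 0.503% at least 4. A match describes the letters and does not show that a factor binds there.

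Mt1 was the metallothionein with the largest difference. The brightest Mt1 probe set measured 11.68 in the Mt-KO saline pool, 12.45 in the HET saline pool and 13.17 in the WT saline pool. The lead pools, which share no array with the saline pools, measured 11.71 in Mt-KO, 12.87 in HET and 13.30 in WT. The Mt-KO pools were the lowest and the WT pools the highest in both treatments. Mt1 was 2.53-fold lower in the Mt-KO saline pool than in the WT saline pool (log2 -1.34), with -2.20 in GC-RMA and -1.41 in PLIER. The lead pair gave -1.68. A second Mt1 probe set, below the brightness limit of 9.44, did not show this after saline, with 9.13 in Mt-KO, 9.17 in HET and 9.06 in WT pools (difference 0.22). After lead it ran in the same genotype order, with 9.05 in Mt-KO, 9.17 in HET and 9.37 in WT pools (-0.42).

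Mt2 measured 11.87 in Mt-KO, 12.05 in HET and 12.59 in WT pools after saline, and 11.82, 12.27 and 12.73 in the same genotypes after lead. The order of genotypes was that of Mt1, with a smaller distance. Mt2 was 1.48-fold lower in the Mt-KO saline pool (log2 -0.57), just short of 1.5-fold, whereas the difference was -1.12 in GC-RMA, -0.78 in PLIER and -1.001 in the lead pair. Mt3 measured 12.88 in Mt-KO, 13.17 in HET and 13.64 in WT pools after saline, and 12.98, 13.35 and 13.14 after lead. Mt3 was 1.52-fold lower (log2 -0.61) in the saline pair, and its difference was -0.35 against genes of like brightness, an adjustment explained below, and -0.26 in the lead pair. Mt4 lay between 6.19 and 6.46 in all 6 pools, too dim to be compared. Remaining Mt1 and Mt2 signal in the Mt-KO pools does not contradict the labels, since the altered part of the genes is not given.

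**Figure D1:**
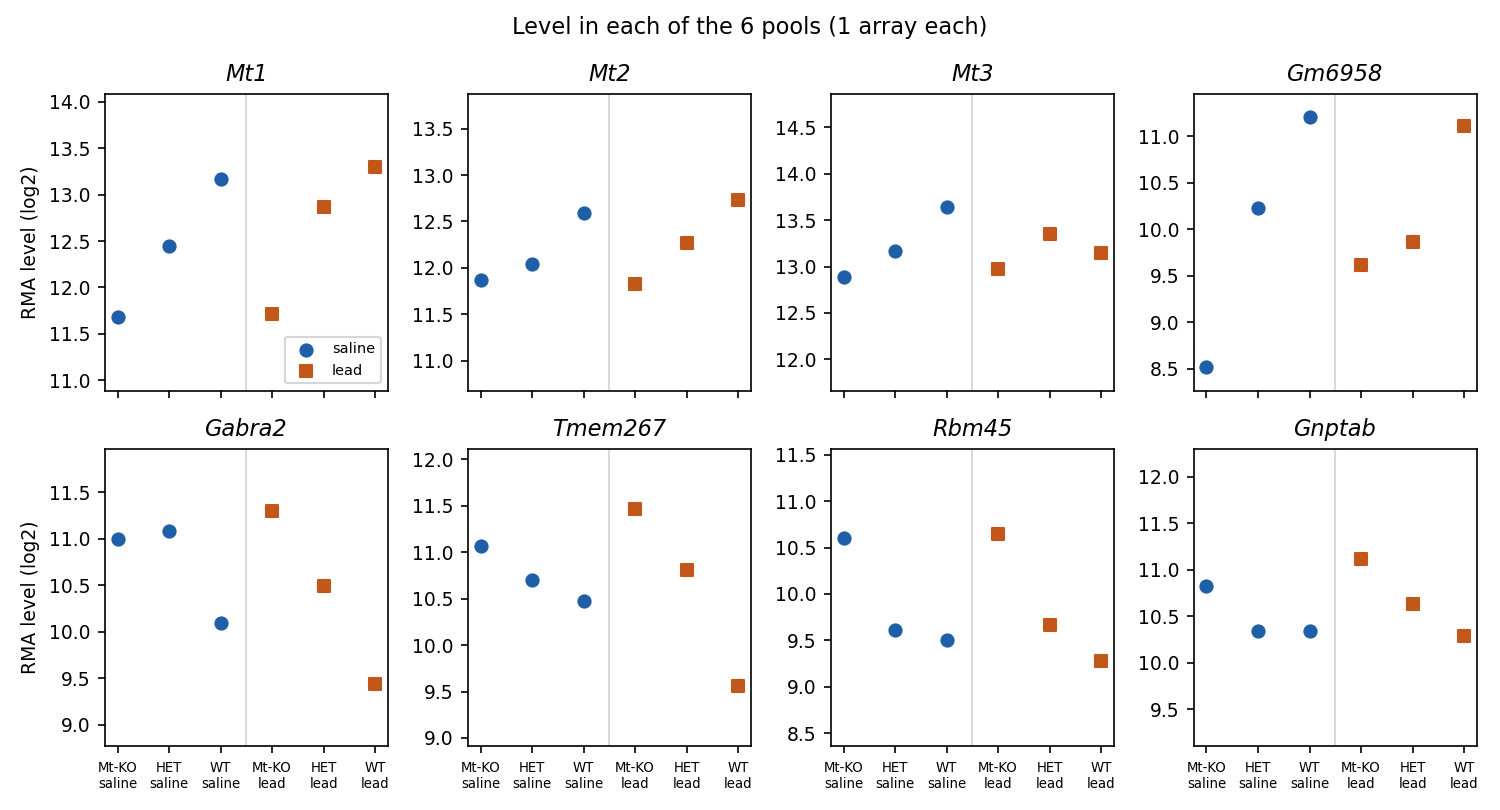
RMA level (log2, vertical axis, the same height of scale in every panel) of 8 genes in each of the 6 pools, 1 array each, with saline pools as circles and lead pools as squares. Mt1, Mt2 and Gm6958 were lowest in an Mt-KO pool and highest in a WT pool in both treatments, and Gabra2, Tmem267, Rbm45 and Gnptab were lower in the WT than in the Mt-KO pool in both. Mt3 showed the genotype order after saline (12.88 in Mt-KO, 13.64 in WT) and not after lead.

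The other listed genes of zinc biology had a median close to that of all genes. Of 20 listed zinc genes 19 were compared, and their median difference was 0.01. None was past 1.5-fold, where 2.98% of all genes were, a share at which a list this short can hold none. The largest was Slc39a13, a zinc transporter of the secretory pathway, at 0.50, followed by Slc30a10, a family member that exports manganese, at 0.35. Slc30a1, the plasma membrane zinc exporter that MTF-1 also activates, differed by -0.23, and Mtf1 itself by 0.17 in RMA and -0.03 in both other summaries. None of 10 iron genes (median -0.14), 9 copper genes (0.13) or 7 heme synthesis genes (0.03) was past 1.5-fold. In GC-RMA the copper and heme synthesis medians were on the other side of 0, at -0.25 and -0.15. Their largest differences were -0.38 for Aco1, the cytosolic aconitase that senses iron, and 0.42 for Cpox, an enzyme of heme synthesis. The other bright probe set gave -0.08 for Aco1 and -0.60 for Cpox.

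Most lists of stress and antioxidant genes had no member past 1.5-fold, where 2.98% of all genes were. This held for 11 NRF2 targets (median -0.02), 13 other antioxidant enzymes (-0.14), 13 ATF4 targets (-0.06), 12 immediate early genes (-0.08) and 12 apoptosis genes (-0.05). At that share a list this short can hold none. Among the antioxidant genes, thioredoxin (Txn1) differed by -0.51, catalase (Cat) by -0.46, Srxn1 by 0.43, Txn2 by 0.35 and superoxide dismutase 1 (Sod1) by 0.29. Other bright probe sets of these genes gave 0.61 for Txn1, 0.13 for Cat, 0.02 to 0.42 for Srxn1, 0.10 to 0.14 for Txn2 and -0.23 to -0.10 for Sod1. Prdx2, of the other antioxidant enzymes, was at -0.28 by its brightest probe set and at -2.65 by its other bright one. Against genes of like brightness Txn2 was past 1.5-fold higher (0.65). Of 12 cytosolic heat shock genes, the chaperones Hspa8 (-0.68) and Hsp90aa1 (-0.66) were past 1.5-fold lower, where 1.62% of all genes were. Neither chaperone gene was past it when set against genes of like brightness (-0.16 and -0.17). Of 13 endoplasmic reticulum chaperones, only the disulfide isomerase Pdia3 (0.67) was past 1.5-fold.

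Genes that glucocorticoids induce, other than metallothioneins, were mostly on the low side. Of 12 compared, 10 were below the median gene, with a median of -0.18, and 1 was past 1.5-fold, where 2.98% of all genes were. That gene was Glul, the glutamine synthetase of astrocytes, which measured 13.05 in Mt-KO, 13.28 in HET and 13.98 in WT pools after saline (difference -0.79), and 13.28, 13.71 and 13.74 after lead (-0.55). The other bright Glul probe set gave -0.03 after saline, and the brightest one was at -0.31 in GC-RMA. Klf9 differed by -0.46 (lead pair -0.34) and Zbtb16 by -0.45 (lead pair -0.38), and both encode transcription factors. Period gene Per1 differed by -0.33 (lead pair -0.08). Against genes of like brightness the list had a median of -0.16, and 0 of its genes were past 1.5-fold.

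Across all genes, 311 were past 1.5-fold (2.98%), 142 of them higher (1.36%) and 169 lower (1.62%) in the Mt-KO saline pool. Past 2-fold were 33 higher (0.316%) and 7 lower (0.067%). The same way in all 3 summaries were 126 genes (1.21%), 88 higher (0.843%) and 38 lower (0.364%). Between the lead pools of the same genotypes 84 genes were past 1.5-fold (0.804%). Between Mt-KO and HET saline pools, which leaves out the WT saline array, there were 29 (0.278%). Between HET and WT saline pools, which uses it again, there were 136 (1.3%).

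The WT saline array had the largest 3′ excess of Gapdh. The excess of the 3′ over the 5′ Gapdh probe set, a sign of shortened RNA or incomplete copying, was 0.54 (log2) on the Mt-KO saline array and 1.19 on the WT saline array, with 0.57 to 0.82 on the 4 others. For Actb the excess was 0.37 in Mt-KO saline and 0.59 in WT saline. For Pcx, 1.38 and 1.33, and for Tfrc, 1.01 and 0.91, the 2 arrays were close. At the bright end the 2 arrays were at opposite extremes of the 6: the 90th percentile of the compared genes was 12.66 in Mt-KO saline and 12.98 in WT saline, with 12.71 to 12.95 on the 4 others, HET lead being the closest to WT saline. With the genes in 5 equal groups by brightness, the dimmest group had a median difference of 0.13 and the brightest -0.21, while the lead pair gave -0.05 in both. Of the 169 lower genes 136 lay in the brightest group. Differences were therefore also computed against the running median of genes of like mean brightness, which left 127 higher genes (1.22%) and 51 lower (0.488%), 107 and 37 of them shared with the main counts. Scaling all arrays to 1 distribution by quantiles gave 122 higher and 48 lower, and the values as deposited gave 71 higher and 484 lower. The part that brightness or RNA integrity had in the single differences was not tested.

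**Figure D2:**
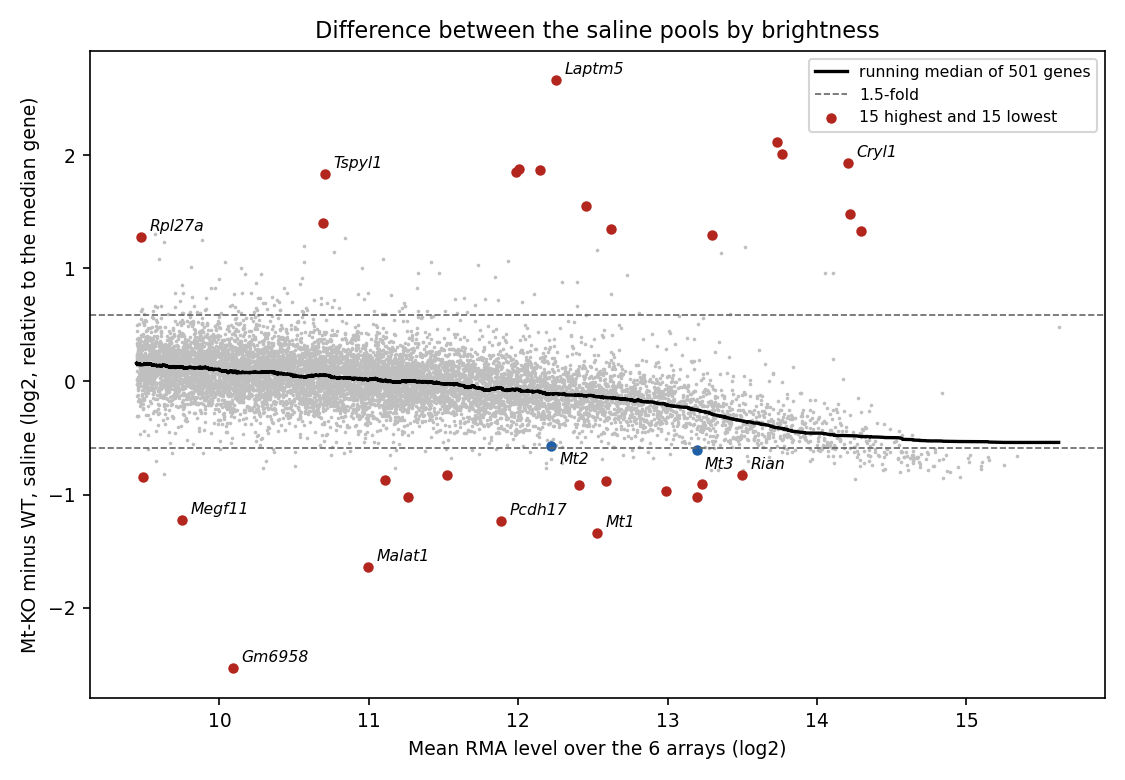
Mt-KO minus WT difference after saline (log2, relative to the median gene, vertical axis) against mean RMA level over the 6 arrays (log2, horizontal axis), 1 grey point per compared gene. The running median (black line) lies above 0 among dim genes and below 0 among bright ones; red points are the 15 highest and 15 lowest genes, and blue points are Mt2 and Mt3.

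Of the markers of the labelled tissue, all 16 neuronal and all 19 astrocyte autosomal genes with a usable probe set were bright enough to be compared, against 4 of 14 such genes of muscle, bone and skin and 3 of 12 of blood. That contrast did not hold for every brain list. Compared were 11 of 19 microglial, 6 of 17 hindbrain and spinal Hox, and 5 of 17 choroid plexus and ependymal genes. The pools differed in sex-linked transcripts, for which every probe set is considered here. The brightest probe set of Eif2s3y, a Y-linked gene, measured 6.50 in the Mt-KO saline pool, 9.93 in the HET and 10.45 in the WT saline pool. The probe sets of the Y-linked genes Kdm5d and Uty differed in the size of the gap. For Kdm5d 1 probe set measured 6.07 in Mt-KO and 8.48 in WT saline pools, while the other 2 measured 7.76 and 7.87 in Mt-KO and 8.22 and 7.99 in WT. For Uty the widest gap was 6.23 in Mt-KO against 8.56 in WT, and another probe set measured 8.09 and 8.14. Each of these probe sets was lower in Mt-KO than in WT, some by little. Those with little gap also varied little over all 6 pools. The 2 of Kdm5d ran from 7.76 to 8.26 and the Uty one from 8.09 to 8.40. The Kdm5d and Uty probe sets with the widest gap were, like Eif2s3y, lowest in Mt-KO saline and highest in Mt-KO lead (9.13 and 9.09). Xist, the RNA of the inactive X chromosome, measured 12.75 in Mt-KO and 11.91 in WT saline pools by its brightest probe set, and 12.63 and 11.50 by the next. Ddx3y had no probe set of 1 symbol. After lead the Mt-KO pool was the one with the most Y-linked signal (Eif2s3y 11.16 in Mt-KO and 9.45 in WT) and the least Xist, at 10.23 in Mt-KO and 12.20 in WT by the brightest probe set and 7.14 and 12.76 by the next. Whether each pool held both sexes, as described, was not tested. Genes on the sex chromosomes were left out of every count, and what part the sexes in the pools had in the autosomal differences was not tested.

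The 15 genes highest in the Mt-KO saline pool, among those past 1.5-fold in all 3 summaries, were led by Laptm5. It encodes a lysosomal membrane protein of blood and microglial cells. Its brightest probe set measured 13.13 in Mt-KO, 12.97 in HET and 10.62 in WT pools after saline, and 12.87, 11.48 and 12.45 after lead. The WT saline pool was the low one, with HET lead next, and the 2 saline knockout carriers were nearly level. Laptm5 was 6.33-fold higher in Mt-KO than in WT after saline, and the lead pair differed by 0.33. The other bright Laptm5 probe sets differed by -0.16 and 0.13. The remaining 10 microglial genes compared lay between -0.02 and 0.35, the top one being the complement gene C1qa, so no other microglial marker was past 1.5-fold.

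Much the same picture held for most of the 15. Next came 1700003E16Rik (2.12), Pik3cd, the phosphoinositide 3-kinase subunit of leukocytes (2.01), and Cryl1, a crystallin-related dehydrogenase (1.93). Srr, serine racemase, which makes the NMDA receptor co-agonist D-serine, differed by 1.85 and measured 12.84 in Mt-KO, 12.33 in HET and 11.13 in WT pools after saline, and 12.53, 11.14 and 11.95 after lead. The other 3 bright Srr probe sets differed by -0.04 to 0.11. Nrip2 differed by 1.87, the histone deacetylase Hdac11 by 1.55, the cell cycle factor E2f5 by 1.48, the mitochondrial import protein Timm44 by 1.35, the flap endonuclease Fen1 by 1.33 and the splicing repressor Ptbp1 by 1.29. Relative to each array's median gene, WT saline was the lowest of the 6 pools in 12 of the 15 and HET lead in the other 3, while Mt-KO saline was the highest in 13. The choice of the 15 by this difference partly fixes these counts, and 20.4% of all genes had WT saline lowest. Mt-KO saline lay outside the other 5 pools, on either side, in 36.2% of all genes. Of the 15 genes, 10 had another bright probe set, and in only 1 of those 10 was another probe set past 1.5-fold higher. Over all 88 genes higher in the 3 summaries, WT saline lay below the other 5 pools in 73 and Mt-KO saline above them in 44, counts that the choice of the genes by this very difference partly fixes. HET lead was the next lowest in 33 of the 73, and in 627 of the 2133 genes of the whole table that had WT saline lowest.

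The 1 exception with a second probe set was Samhd1, a dNTP hydrolase that restricts retroviruses. It measured 13.05 in Mt-KO, 12.39 in HET and 11.32 in WT pools after saline, and 12.51, 10.94 and 11.83 after lead. The Mt-KO pool was above the WT pool in both treatments, by 1.88 in the saline pair and 0.58 in the lead pair. A second probe set gave 1.52, whereas another bright one gave 0.05. The other interferon and antigen presentation genes were not past 1.5-fold, the next being the class I gene H2-D1 at 0.32 of a list whose median was 0.20.

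**Figure D3:**
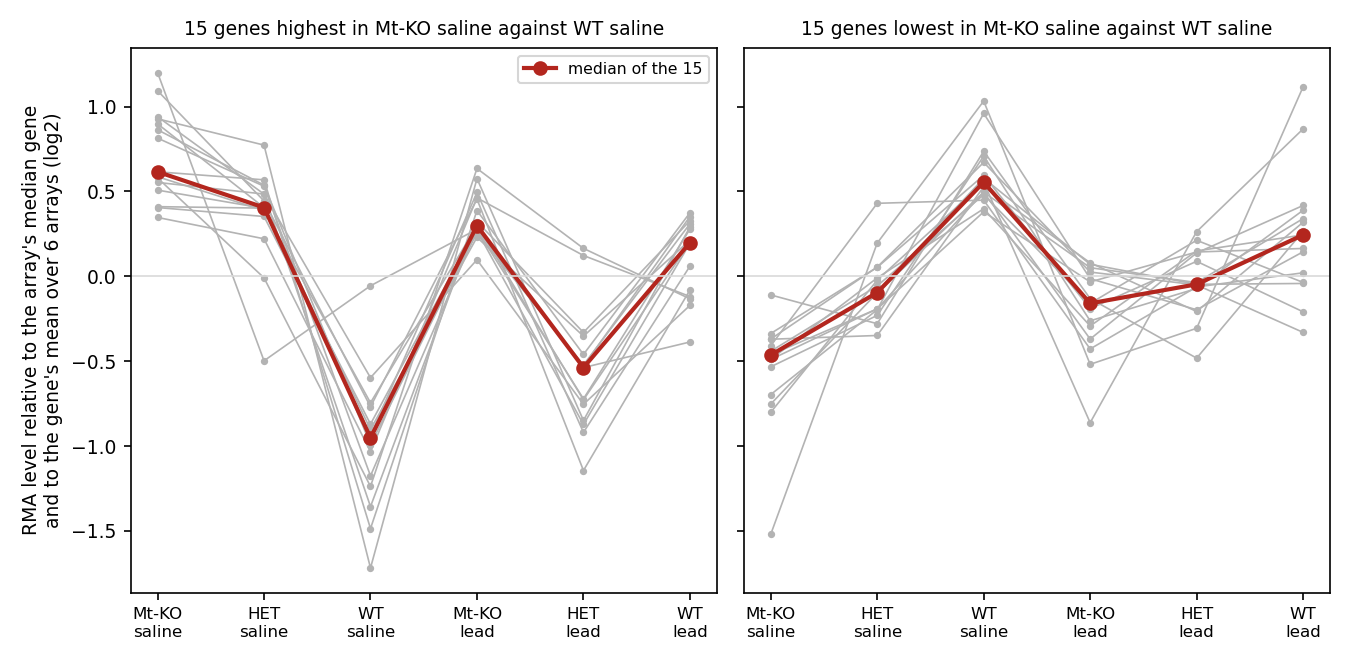
Level of the 15 highest (left) and 15 lowest (right) genes in each pool, in log2 RMA relative to the array's median gene and the gene's mean over the 6 arrays, with 1 grey line per gene and the median in red. On the left WT saline is the lowest pool in 12 of 15 genes with HET lead also low, and on the right WT saline is the highest in 13 of 15 and Mt-KO saline the lowest in 12. The choice of the genes by the Mt-KO minus WT saline difference partly fixes these counts.

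Rpl27a, a ribosomal protein gene, had another pattern. It measured 10.63 in Mt-KO, 8.92 in HET and 9.51 in WT pools after saline, and 9.80, 9.02 and 8.99 after lead. The Mt-KO pool was the highest in both treatments, and Mt-KO saline exceeded the next pool by 0.92 after each array was set to its median gene, the largest such excess of the 88 genes. The difference was 1.27 after saline and 0.71 after lead. Tspyl1 (1.83, lead pair 0.82) and Exoc8, a subunit of the exocyst that tethers secretory vesicles (1.40, lead pair 0.63), were likewise past 1.5-fold in both pairs. The next genes that set Mt-KO saline above all other pools were Samhd1, Nipsnap2 (0.75, lead pair 0.60), Hdac11 and the glutathione synthetase gene Gss (1.19, lead pair -0.02). Gss measured 11.23 in Mt-KO, 10.80 in HET and 10.18 in WT pools after saline, and 10.51, 10.23 and 10.43 after lead.

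The 15 lowest genes were led by Gm6958, a predicted gene whose product is not described here. It measured 8.52 in Mt-KO, 10.23 in HET and 11.20 in WT pools after saline, and 9.61, 9.86 and 11.11 after lead. The order was Mt-KO below HET below WT in both treatments. Gm6958 was 5.80-fold lower in the Mt-KO saline pool (log2 -2.54), and the lead pair gave -1.59. A dimmer probe set gave -2.16 and -1.65. It was thus lower in both pairs and by both probe sets, and it lies on chromosome 16 whereas the metallothioneins lie on chromosome 8.

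Malat1, a nuclear long noncoding RNA, measured 10.25 in Mt-KO, 10.74 in HET and 12.04 in WT pools after saline, and 11.03, 10.87 and 11.04 after lead. The saline pair was far apart (-1.64) and the lead pair was not (-0.11), with WT saline as the high pool. The other 4 bright Malat1 probe sets differed by -1.11 to -0.15. Pcdh17, a delta protocadherin of cell adhesion, measured 11.08 in Mt-KO, 11.73 in HET and 12.46 in WT pools after saline and 11.98, 11.92 and 12.13 after lead. Its difference was -1.23, with -0.59 from its other bright probe set, and -0.24 in the lead pair. Megf11, a receptor with EGF-like repeats, differed by -1.23 (lead pair -0.60), with 0.35 from its other probe set. Crebbp, the CBP acetyltransferase, differed by -1.03, the microtubule-end protein gene Mapre2 by -1.02 and Ap2b1, a clathrin adaptor subunit, by -0.97. In the lead pair Ap2b1 differed by -0.74, Crebbp by 0.16 and Mapre2 by 0.40, and the other bright Ap2b1 probe set gave 0.20 after saline.

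Cacna1b and Atp2b1 were also among the 15. The N-type calcium channel gene Cacna1b measured 12.02 in Mt-KO, 12.40 in HET and 13.08 in WT pools after saline (-0.92), and its lead pair differed by 0.07. The other 3 bright Cacna1b probe sets differed by -0.36, -0.25 and 0.15 after saline. The plasma membrane calcium pump gene Atp2b1 measured 12.74 in Mt-KO, 13.11 in HET and 13.79 in WT pools (-0.91), and its lead pair differed by -0.08. The other 2 Atp2b1 probe sets differed by -0.41 and 0.15. For both genes only the brightest probe set was past 1.5-fold. Ide, the insulin-degrading enzyme (-0.88), 5730455P16Rik (-0.87), Gadd45gip1 (-0.84), the imprinted noncoding RNA Rian (-0.83) and the helicase gene Dhx36 (-0.83) completed the 15. Of the 11 with another bright probe set, 4 had one past 1.5-fold lower, Ide among them with -0.85 and -1.20. WT saline was the highest pool in 13 of the 15 and Mt-KO saline the lowest in 12. The choice of the 15 by this difference partly fixes both counts, and 27.5% of all genes had WT saline highest. In 36.2% of all genes Mt-KO saline lay outside the other 5 pools, on either side. Mpp6, a membrane scaffold gene outside the 15 (-0.75, lead pair 0.10), also had Mt-KO saline as its lowest pool, 0.43 below the next after each array was set to its median gene, a smaller distance than in Gm6958, Pcdh17 and Malat1.

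The lead pair supplied the same genotype difference in arrays that the saline pair did not use. Of the 142 genes higher after saline, 15 (10.6%) were past 1.5-fold higher after lead, where 0.508% of all genes were. These 15 were 28.3% of the 53 genes higher after lead. Of the 169 lower, 5 (2.96%) were past 1.5-fold lower after lead, where 0.297% of all genes were, and these were 16.1% of the 31. Across all genes 49.8% had the same sign in both pairs. Among the genes past 1.5-fold after saline, 105 of the 142 higher and 153 of the 169 lower had the same sign after lead. Of those 169, 136 lay in the brightest group. In all 3 summaries, 31 genes (0.297%) were past 1.5-fold higher and 13 (0.124%) lower after lead, of which 7 and 4 were so after saline too.

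Gabra2, the alpha 2 subunit of GABA-A receptors, ranked first, by the smaller of its 2 differences, among the 7 genes higher in both pairs in all 3 summaries. It measured 10.997 in Mt-KO, 11.08 in HET and 10.09 in WT pools after saline, and 11.30, 10.49 and 9.44 after lead. The WT pool was the lowest in each treatment, and HET was level with Mt-KO after saline only. Gabra2 differed by 1.05 after saline and 1.76 after lead, with 0.92 and 1.52 from its other bright probe sets after saline and 1.44 and 1.34 after lead. The gene lies on chromosome 5. The other 7 GABA-A receptor subunits compared lay between -0.33 and 0.32.

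Tmem267 measured 11.06 in Mt-KO, 10.70 in HET and 10.48 in WT pools after saline, and 11.47, 10.80 and 9.56 after lead (differences 0.73 and 1.81). The order of genotypes was the same in both treatments. Plvap, which encodes the diaphragm protein of fenestrated vessels, differed by 0.64 (0.50 against like brightness) and 1.13. Gnptab, a subunit of the enzyme that tags lysosomal hydrolases with mannose 6-phosphate, differed by 0.63 and 0.74, with 0.92 and 0.70 from a second probe set. Rbm45, an RNA-binding protein gene, measured 10.60 in Mt-KO, 9.62 in HET and 9.50 in WT pools after saline, and 10.65, 9.67 and 9.28 after lead. Only the Mt-KO pools were high, 2.37-fold above WT after saline, with a difference of 1.27 in the lead pair, but Rbm45 was not past 1.5-fold in the other summaries (0.48 in GC-RMA and 0.21 in PLIER). Lower in both pairs and all summaries were Gm6958, Mt1, Ap2b1 and the splicing regulator Srek1 (-0.70 and -0.71). For Srek1 the other bright probe sets ran from -0.60 to 0.45.

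**Figure D4:**
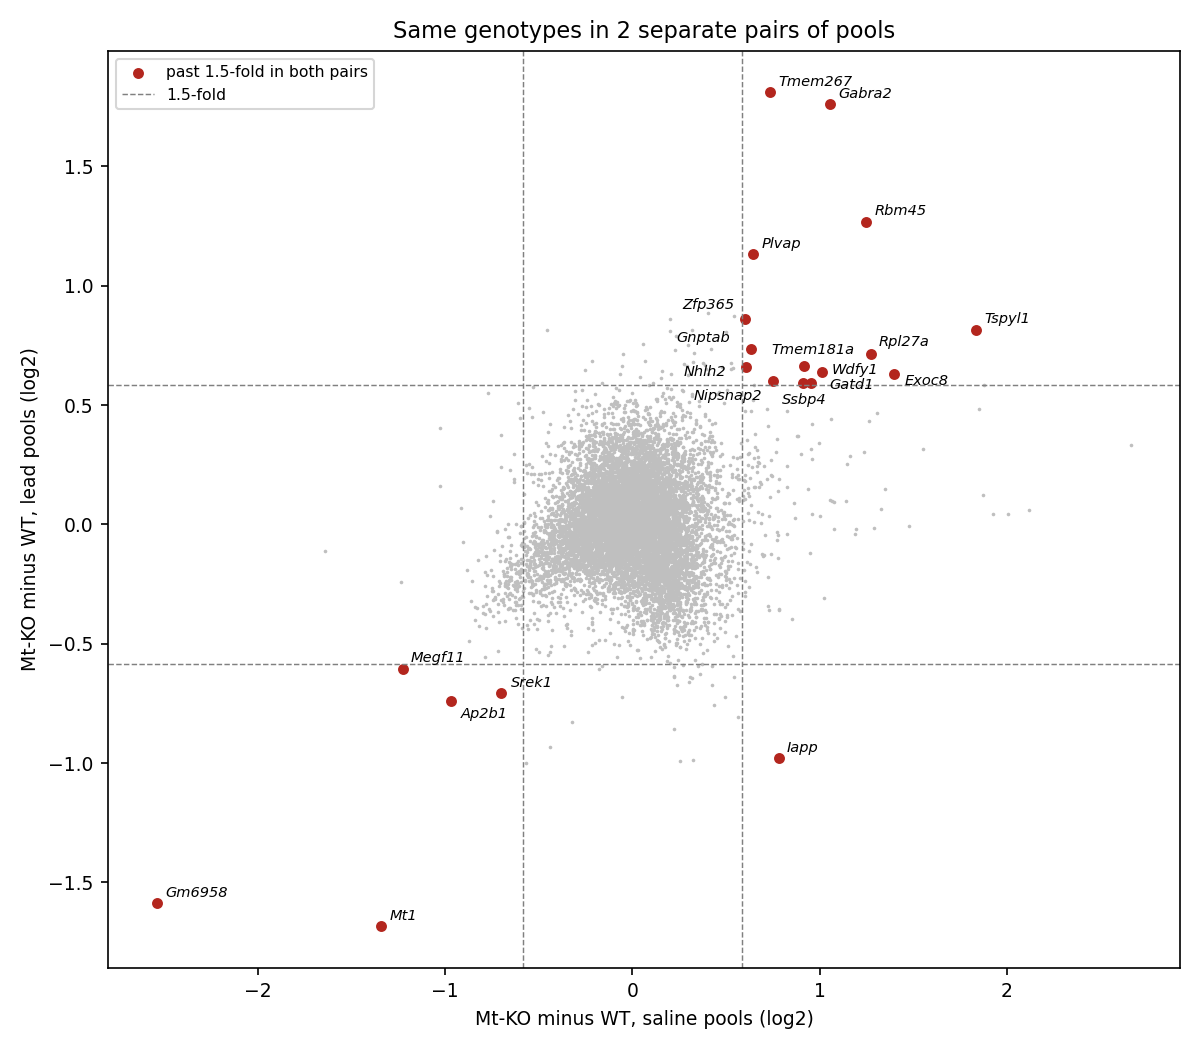
Mt-KO minus WT difference after lead (log2, vertical axis) against the same difference after saline (log2, horizontal axis), each relative to its median gene, with 1 grey point per compared gene and genes past 1.5-fold in both pairs in red. Of those, 15 lie at the upper right, 5 at the lower left with Gm6958 and Mt1 farthest out, and 1, Iapp, at the lower right.

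Genes around Mt1 had a median close to that of all genes. Of 89 compared genes within 10 Mb of Mt1, the median difference was -0.02, and without Mt1 and Mt2 it was -0.01, with 1 of 87 past 1.5-fold higher, where 1.36% of all genes were, and 3 lower, where 1.62% were. These were Rnaseh2a (0.61, or 0.49 against like brightness), a ribonuclease H2 subunit gene, and Gadd45gip1 (-0.84), Ndrg4 (-0.72) and Mt3. Gadd45gip1, a mitochondrial ribosome protein gene, measured 9.03 in Mt-KO, 9.86 in HET and 10.02 in WT pools after saline and 9.10, 9.50 and 9.41 after lead, and lies 9.35 Mb from Mt1. A dimmer probe set of Gadd45gip1 gave 0.45, and Ndrg4 was 0.20 in GC-RMA. By chromosome, genes past 1.5-fold made up 1.81% (chromosome 4) to 4.80% (chromosome 14), and chromosome 8 had 3.33%.

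The lists of cell types and pathways hold 684 compared entries, and some genes stand in more than 1 list. The bright lists were the low ones. All 16 neuronal genes were below the median gene, with a median of -0.46 (lead pair -0.23), and 5 were past 1.5-fold lower, where 1.62% of all genes were. They include the microtubule regulators Stmn3 (-0.75) and Stmn2 (-0.65), the growth cone protein gene Gap43 (-0.74) and the neurofilament gene Nefm (-0.68). Gap43 measured 13.35 in Mt-KO, 13.52 in HET and 14.24 in WT pools after saline, and 13.55, 13.77 and 13.74 after lead. Against genes of like brightness the neuronal median was -0.06 and 0 were past 1.5-fold. In GC-RMA Stmn3 (0.014) and Stmn2 (0.10) were on the other side of 0.

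Past 1.5-fold lower were 1.62% of all genes, and 136 of the 2089 genes in the brightest group. Of 38 cytosolic ribosomal protein genes, 14 were past 1.5-fold lower, with a median of -0.45. Rps29 (-0.84), Rps28 (-0.80) and Rpl38 (-0.79) were the lowest, and Rpl27a was the only 1 past 1.5-fold higher. The Rpl27a probe set had a mean of 9.48, near the brightness limit, where the list median was 14.15. Of 48 respiratory chain genes 10 were past 1.5-fold lower, with a median of -0.33, led by the complex IV subunit gene Cox6a1 (-0.86) and the complex III subunit gene Uqcrb (-0.80). Against genes of like brightness the medians were -0.09 and -0.04 and none of these genes was past 1.5-fold lower. Of 12 long noncoding RNAs 3 were past 1.5-fold lower, Malat1, Rian and the imprinted Meg3 (-0.73), with a median of -0.43, and -0.20 against genes of like brightness. All 7 delta protocadherins were below the median gene, with a median of -0.32 (-0.27 against like brightness), but only Pcdh17 was past 1.5-fold, and the lead pair median was 0.11.

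Some dimmer lists lay on the high side. Of 13 neurogenic transcription factors 10 were above the median gene, with a median of 0.34 (0.25 against like brightness, 0.08 in the lead pair). Nhlh2, of late neuronal precursors, was 0.61 in the saline and 0.66 in the lead pair, and Pax6, of radial glia and granule cells, was 0.60 and 0.47. Sox4 went the other way at -0.71. Against genes of like brightness Nhlh2 was 0.49, Pax6 0.48 and Sox4 -0.25, and 0 of the 13 were past 1.5-fold. Nhlh2 measured 9.72 in Mt-KO, 9.57 in HET and 9.26 in WT pools after saline, and 10.57, 10.16 and 9.82 after lead. The genotype order was the same in both treatments, and each genotype's lead level was above its saline level.

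Cerebellar genes held part of this. Of 10 granule cell genes 9 were above the median gene, with a median of 0.32 (0.07 in the lead pair), among them Pax6, En2 (0.49) and Barhl1 (0.48), while Zic2 was at -0.82. Of 12 Purkinje cell genes 8 were above and 4 below the median gene, with a median of 0.10 (-0.03 in the lead pair) and a lowest member at -0.39. Among them the glutamate transporter Slc1a6 (0.59, or 0.51 against like brightness) and Pcp2 (0.73, or 0.81) were past 1.5-fold higher, where 1.36% of all genes were. Pcp2 measured 11.69 in Mt-KO, 11.88 in HET and 11.10 in WT pools after saline, and 11.83, 12.08 and 12.10 after lead. WT saline was the low pool, and the lead pair differed by -0.36. In whole brain RNA, a different number of cells of a type and a different amount of RNA per cell cannot be told apart. All 6 hindbrain and spinal Hox genes compared were above the median gene (median 0.28, or 0.15 against like brightness, lead pair -0.14), with Hoxa5 at 1.15 and Hoxa7 at 0.59. Hoxa7 was not past 1.5-fold against like brightness (0.46) or in GC-RMA (0.20). Hoxa5 measured 11.49 in Mt-KO, 11.20 in HET and 10.49 in WT pools after saline, and 10.74, 10.28 and 10.39 after lead.

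All 17 cell division genes were above the median gene, and none was past 1.5-fold, where 2.98% of all genes were. The list median was 0.21 in the saline pair, 0.14 in the lead pair and 0.14 against genes of like brightness. The largest were the spindle factor gene Tpx2 (0.46), the cyclins Ccna2 (0.43) and Ccnb2 (0.38) and the topoisomerase Top2a (0.35).

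**Figure D5:**
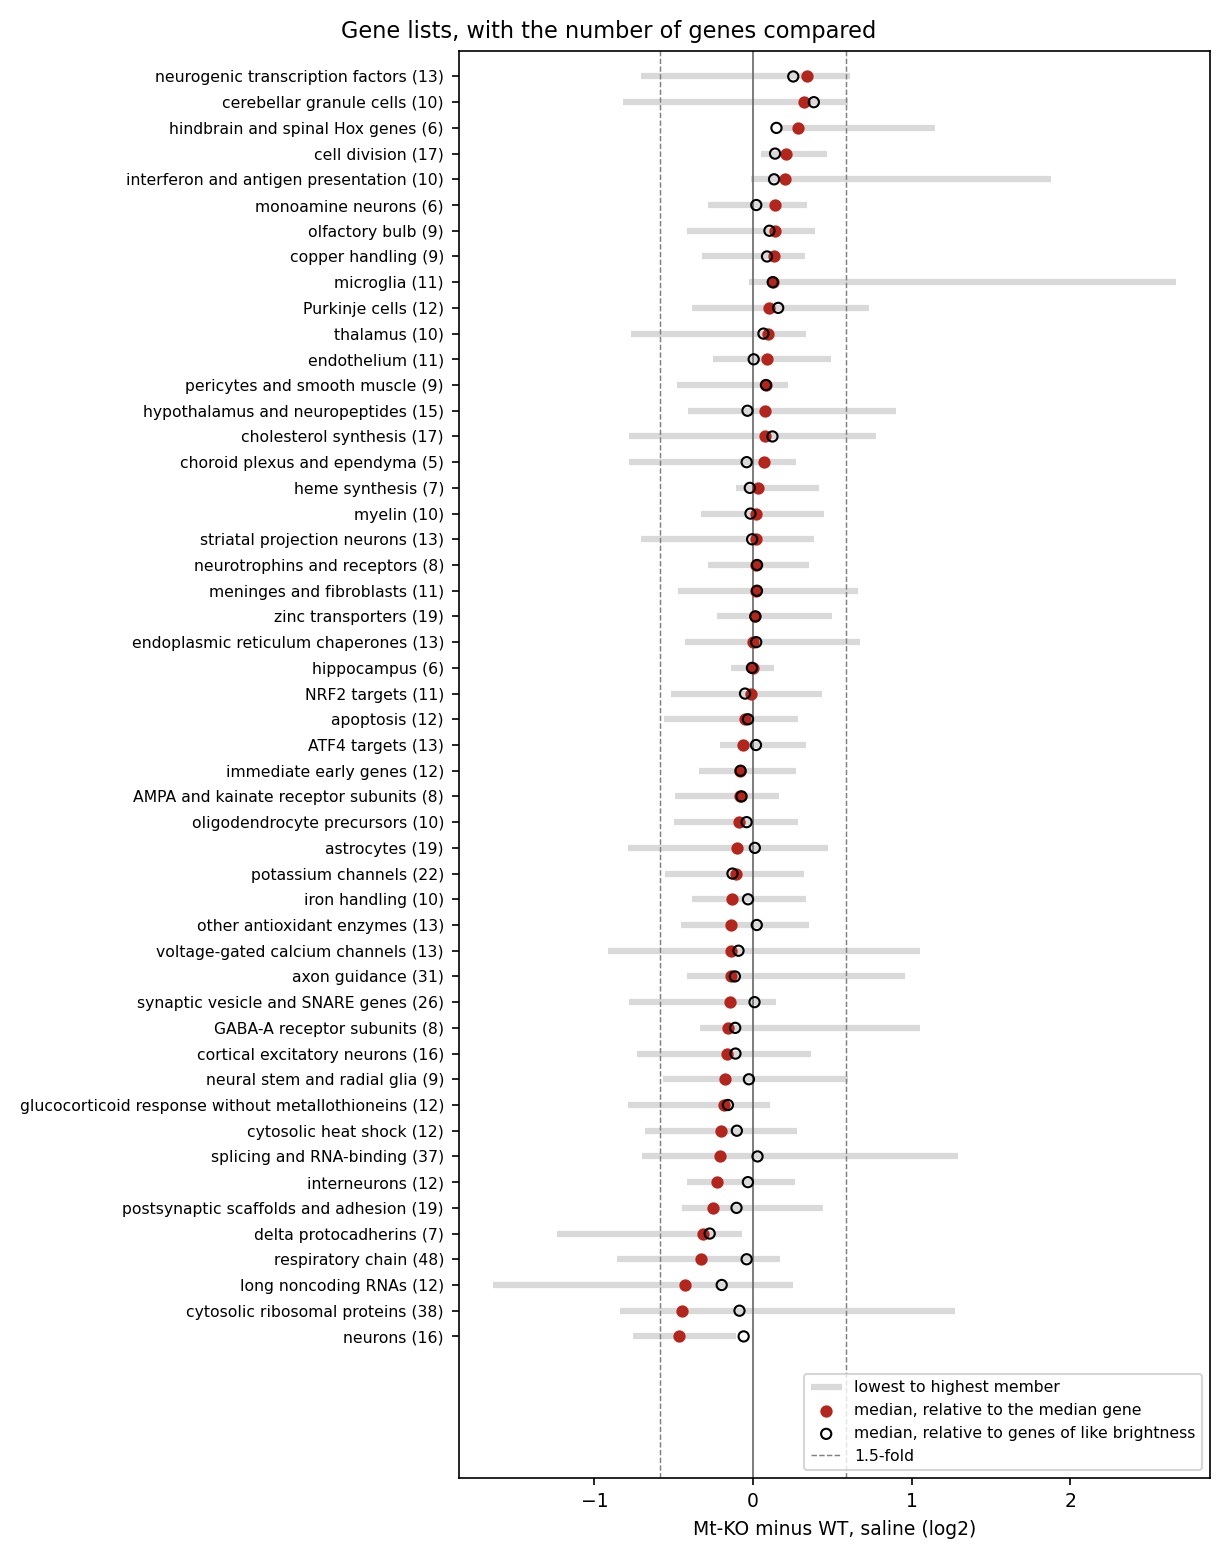
Mt-KO minus WT difference after saline (log2, horizontal axis) of each gene list with 5 or more genes compared, with the number of genes in brackets. Grey bars run from the lowest to the highest member, red points are medians relative to the median gene, and open circles are medians relative to genes of like brightness. The neuronal, ribosomal and respiratory lists have red medians of -0.46, -0.45 and -0.33 and open circles near 0.

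Against genes of like brightness, synaptic list medians ran from -0.13 (potassium channels, -0.11 without the adjustment) to 0.03 (neurotrophin genes). Past 1.5-fold were 2.98% of all genes, a share at which short lists can hold no such member. Of 26 synaptic vesicle and SNARE genes only Syt11 (-0.78, or -0.50 against like brightness) was past 1.5-fold, and the list median was -0.15, or 0.01 against like brightness. The other 4 bright Syt11 probe sets ran from -0.25 to 0.93. Of 19 postsynaptic scaffold and adhesion genes (median -0.25), 22 potassium channels (-0.11), 8 AMPA and kainate receptor subunits (-0.08), 3 NMDA receptor subunits (-0.15) and 8 neurotrophin genes (0.02), none was past 1.5-fold. Of 13 voltage-gated calcium channel genes the auxiliary subunit Cacnb1 (1.06) was higher and Cacna1b lower. Of 31 axon guidance genes only Sema3f, a secreted semaphorin, was past 1.5-fold (0.96). It measured 14.38 in Mt-KO, 14.34 in HET and 13.57 in WT pools after saline, and 14.43, 13.85 and 14.06 after lead.

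Glial and vascular lists were also near the median gene. The medians were -0.10 for 19 astrocyte genes, 0.02 for 10 myelin genes, -0.09 for 10 oligodendrocyte precursor genes and 0.09 for 11 endothelial genes. Glul was the only member past 1.5-fold, where 2.98% of all genes were, and its other bright probe set gave -0.03. The myelin genes were, however, higher in the HET saline pool: the median was 0.43 for HET minus WT and -0.47 for Mt-KO minus HET, comparisons that share the HET array. Among region markers, the cortical genes Mef2c (-0.73) and Nrgn (-0.71) were past 1.5-fold lower, with -0.24 and -0.35 against like brightness. The thalamic transcription factor gene Tcf7l2 measured 10.62 in Mt-KO, 11.41 in HET and 11.54 in WT pools after saline, and 11.28, 11.56 and 10.64 after lead. Mt-KO was the low pool after saline (-0.77) and WT after lead (0.55). Gpr6, of striatal neurons, differed by -0.70 and 0.37 in the same pairs. Of 15 hypothalamic and neuropeptide genes, 8 above and 7 below the median gene (median 0.08), only the hormone gene Avp was past 1.5-fold (0.90, lead pair 0.30). Of 5 choroid plexus and ependymal genes (median 0.07), only transthyretin (Ttr) was, at -0.78, or -0.25 against like brightness.

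In the remaining lists few members were past 1.5-fold, where 2.98% of all genes were. Of 37 splicing and RNA-binding genes, Ptbp1 and Rbm45 were past 1.5-fold higher and Srek1 and Hnrnpk (-0.67, or -0.17 against like brightness) lower. Of 17 cholesterol synthesis genes, Sc5d, a late sterol enzyme, was higher (0.78, but -0.62 in PLIER) and Hmgcs1, an early one, lower (-0.78, or -0.29 against like brightness). Of 11 meningeal and fibroblast genes, Aldh1a2, which makes retinoic acid, was higher (0.66, or 0.52 against like brightness, lead pair 0.31), and of 9 radial glia genes only Pax6 was past 1.5-fold. No member was past it among 12 interneuron (median -0.23, or -0.03 against like brightness), 6 hippocampal (-0.0032), 9 olfactory bulb (0.14), 6 monoamine neuron (0.14), 9 pericyte (0.08), 3 pituitary (0.32), 3 blood (0.11) and 4 muscle, bone and skin genes (0.16).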

How the data were processed

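RNA pooled from 5 pups was hybridised to 1 array per genotype and treatment, and the 18 deposited columns are the same 6 arrays in 3 summaries. The authors deposited RMA and GC-RMA columns as log2 values. Their deposited PLIER columns hold linear intensities, to which 16 was added here before taking log2. Partek, RMA, GCRMA and PLIER were used, per the submitters' processing notes. Their versions are not given in the sources used here. Per the labels' protocols, labelling used a kit for whole-transcript arrays, whereas the array is a 3′ expression array. Which of the protocols applied was not settled.

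Of 45101 probe sets, 34958 had 1 gene symbol in the platform annotation, 932 several and 9211 none. Of those with 1, 34754 were found in the GRCm38.p6 gene table (18033 genes, 17405 autosomal). The brightest probe set stood for a gene, and the brightest 60% by mean RMA were compared (Python 3.11.15, pandas 2.3.3). Another probe set counts as bright above the same limit, 9.44. The median of the pair was subtracted, and 1.5-fold was the limit. The calculation was checked on simulated data.

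The genes named are the 15 highest and 15 lowest past 1.5-fold in all 3 summaries, metallothioneins, sex-linked and 3′/5′ controls, and up to 4 members of each of 55 lists by size. To these come up to 5 each way shared with, or opposite in, the lead pair, genes past 1.5-fold within 10 Mb of Mt1, and the 5 each way where Mt-KO saline lay farthest outside the other pools. Slc30a1 and Mtf1 were singled out after their values were seen. Members and lists were chosen with earlier results of these data known. Of the list entries, 684 were compared, 174 were too dim, 104 had no probe set of 1 symbol and 23 were sex-linked. Without replicates there is no test, and the number of arrays limits the precision.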

Additional observations from a re-analysis of the deposited data

Results flagged for a closer look

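Iapp, the gene of islet amyloid polypeptide, was past 1.5-fold in opposite directions in the saline and lead pairs. It measured 10.26 in Mt-KO, 10.57 in HET and 9.62 in WT pools after saline, and 9.81, 10.34 and 10.69 after lead. Mt-KO minus WT was 0.78 after saline and -0.98 after lead, relative to the median gene of each pair. Each value rests on 1 pool a side, and the difference between them was not tested.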

How the results depend on the processing

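The counts depended strongly on the processing. Against 311 genes past 1.5-fold (142 higher, 169 lower), GC-RMA gave 748 (375 higher, 373 lower) and PLIER 618 (329 and 289). Quantile normalization gave 170 (48 lower), values as deposited 555 (71 and 484), no brightness filter 316 lower, the upper 40% of genes 201 (104 lower) and averaging all probe sets of a gene 148 (58 and 90). Setting genes against others of like brightness, chosen after seeing the data, gave 178 (51 lower). A 2-fold limit gave 40 (33 and 7), a lower limit 1709 (732 and 977) and agreement of all 3 summaries 126 (88 and 38). Within 1.5 times of the counts reported were 122 higher with quantiles, 460 in all and 144 higher without the filter, 97 higher in the upper 40%, and 127 higher against like brightness. Differences turned sign for Hsp90aa1 (0.054), Ndrg4 (0.20), Stmn2 (0.10) and Stmn3 (0.014) with GC-RMA, for Stmn2 with quantiles (0.034), for Sc5d with PLIER (-0.62) and for Sox4 with the mean of probe sets (0.11). Apart from these, the cause of which was not tested, no other named gene called past 1.5-fold turned sign. Of 57 list medians, the sign changed for 8 with GC-RMA, 6 with PLIER, 12 with quantiles, 19 as deposited, 15 with the mean of probe sets, 11 without the brightness filter, 10 against like brightness and, of 55, 9 in the upper 40%. No paired analysis was possible because each group was 1 array with no replicate number. No array could be left out, since no difference remains without the WT or the Mt-KO saline array.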
